A study of Mus musculus with 4 samples.

Results

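The genes described here write, erase and read out the chemical state of chromatin or move its nucleosomes. They were selected by gene symbol: every probeset of the array that the platform table ties to 1 symbol beginning with Chd, Smarc, Arid, Kmt, Setd, Kdm, Kat, Hdac, Dnmt or Tet (followed by a digit, except for Smarc). The rule gave 235 probesets of 92 genes, out of 45037 probesets and 18194 named genes in all. No measured value entered this rule. The set was, however, chosen from results of the same control and fluoxetine arrays, so its counts and medians are given as a description and support no claim about the set. The 1 probeset whose annotation pairs Kdm6b with another gene was left out.

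Hippocampal RNA came from inbred DBA/2J males, aged 8-10 weeks per the sample labels. Control mice drank plain water (0 mg/kg per day) and treated mice drank water with fluoxetine, a serotonin reuptake inhibitor, at 18 mg/kg per day for 21 days. Each group held 12 mice, whose RNA was combined into 2 pools of 6 mice, and every pool was run on 1 Affymetrix Mouse Genome 430 2.0 array, so n is 2 pools per group. A probeset is a set of short probes for 1 transcript region, and its value is a GCRMA intensity on a linear scale, which cannot be compared between probesets.

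Nucleosome remodellers such as the CHD, SWI/SNF (BAF) and ISWI ATPases slide or evict histones with energy from ATP. Histone methyltransferases of the KMT and SETD families and lysine demethylases (KDM) set methyl marks, acetyltransferases (KAT) and deacetylases (HDAC) set acetyl marks, and DNMT and TET enzymes methylate and oxidise cytosine. In the hippocampus many of these enzymes take part in activity-dependent transcription, memory formation and neurogenesis, and several of their human genes are mutated in neurodevelopmental disorders.

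The start regions of 5 members at the ends of the range are shown first, since these genes had the largest differences in either direction. Each is RefSeq sequence on build GRCm38.p6, from 250 bases before to 50 after the annotated start and written 5′ to 3′, with CpG dinucleotides in capitals, the sites that DNA methylation and CXXC zinc finger proteins such as KMT2A and KDM2B act on.

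Kmt2a (chr9:44881240-44881539, minus strand): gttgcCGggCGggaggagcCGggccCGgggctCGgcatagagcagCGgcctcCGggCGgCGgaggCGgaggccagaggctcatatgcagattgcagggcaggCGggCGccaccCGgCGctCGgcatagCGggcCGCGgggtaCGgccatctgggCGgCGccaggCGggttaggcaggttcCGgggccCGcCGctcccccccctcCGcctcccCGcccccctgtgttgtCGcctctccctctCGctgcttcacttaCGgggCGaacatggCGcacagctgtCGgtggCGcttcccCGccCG

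Kdm6a (chrX:18162325-18162624, plus strand): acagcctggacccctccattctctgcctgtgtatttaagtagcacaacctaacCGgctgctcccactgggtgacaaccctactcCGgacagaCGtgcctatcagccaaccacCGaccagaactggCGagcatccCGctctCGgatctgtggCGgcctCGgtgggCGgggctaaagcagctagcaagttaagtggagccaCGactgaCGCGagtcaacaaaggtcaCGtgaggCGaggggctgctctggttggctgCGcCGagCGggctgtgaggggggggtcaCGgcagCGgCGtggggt

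Hdac5 (chr11:102230123-102230422, minus strand): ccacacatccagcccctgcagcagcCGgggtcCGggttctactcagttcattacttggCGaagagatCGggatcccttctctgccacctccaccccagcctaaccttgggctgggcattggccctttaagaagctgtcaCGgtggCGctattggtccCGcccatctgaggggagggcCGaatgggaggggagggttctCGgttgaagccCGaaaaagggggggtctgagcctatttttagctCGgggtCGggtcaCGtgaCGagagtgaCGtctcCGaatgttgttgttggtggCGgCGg

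Hdac4 (chr1:92180292-92180591, minus strand): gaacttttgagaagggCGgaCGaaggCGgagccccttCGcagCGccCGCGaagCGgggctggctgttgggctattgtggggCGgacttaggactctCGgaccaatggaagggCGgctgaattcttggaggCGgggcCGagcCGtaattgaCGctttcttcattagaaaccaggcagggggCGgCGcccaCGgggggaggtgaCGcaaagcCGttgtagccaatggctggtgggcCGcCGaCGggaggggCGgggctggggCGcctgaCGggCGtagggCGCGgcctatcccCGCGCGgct

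Kdm2b, its most upstream annotated start (chr5:122989050-122989349, minus strand): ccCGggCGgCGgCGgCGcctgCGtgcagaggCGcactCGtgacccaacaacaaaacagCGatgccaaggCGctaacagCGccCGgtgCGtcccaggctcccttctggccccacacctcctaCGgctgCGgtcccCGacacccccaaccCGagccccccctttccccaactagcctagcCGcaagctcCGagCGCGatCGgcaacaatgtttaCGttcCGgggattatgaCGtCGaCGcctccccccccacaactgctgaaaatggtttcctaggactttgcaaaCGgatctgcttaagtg

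The windows held 36 CpG in Kmt2a, 21 in Kdm6a, 18 in Hdac5, 32 in Hdac4 and 28 in Kdm2b. Genes with lower and genes with higher fluoxetine values both had many CpG. Over the 102 start regions found for 72 of the 92 members the median was 22.5 CpG, against 7 over all 32851 start regions of the table. These cover 27025 genes, whether or not the arrays detected them, and no median over detected genes alone was taken. The cAMP response element TGACGTCA was searched on both strands, together with its part TGACG, which the full element contains. The full element was in 0 of the 102 member windows and in 1.79% of all windows. TGACG was in 31 of the 102 (30.4%) and in 20.8% of all windows, with 3 copies in Hdac4, 2 in Hdac5, 1 in Kdm6a, 1 in the printed Kdm2b window and 0 in Kmt2a. These are matches of letters only.

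Of the 235 probesets, 127 of 80 genes reached an intensity of 100 in at least 2 of the 4 arrays and were tested. 126 of the 127 reached 100 in all 4 arrays, and 0 were tested through 1 group alone. The probesets nearest the limit were Hdac8 (107 and 127 in control, 107 and 111 in fluoxetine pools) inside it and a second Chd9 probeset (122, 91.6, 97.8 and 96.4) outside it. Of the 108 probesets left out, 54 were under 10 in every array. The 12 genes without a tested probeset were Chd7, Arid3a, Arid3b, Arid5a, Kmt5c, Kdm4d, Kdm8, Hdac7, Hdac10, Dnmt3b, Dnmt3l and Tet3.

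No member passed the test. Fluoxetine and control pools were compared with limma over all 16938 tested probesets, with Benjamini-Hochberg adjustment over all of them, and 0 of the 127 member probesets had an adjusted p under 0.05, beside 1.72% of all tested probesets (291). The lowest adjusted p was 0.0601, at a Kmt2a probeset. At an unadjusted p under 0.05 there were 35 member probesets (27.6%), beside 22.5% of all, of which 28 were lower in fluoxetine pools (22%, beside 13.9% of all) and 7 higher (5.51%, beside 8.64%). The submitters' own 2-fold rule took 0 members and 0.791% of all tested probesets. With eBayes in its trend and robust setting 1 member probeset passed, that of Kmt2a (adjusted p = 0.0421). Over the other 13 alternatives its adjusted p lay between 0.0522 and 0.22.

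Differences were small and most lay below 0. The log2 fold change of fluoxetine over control ran from -0.51 (Kmt2a) to 0.46 (Kdm2b), with a median standard error of 0.09. Taking each gene at its brightest tested probeset, 61 of 80 member genes were below 0 (76.2%), beside 56.5% of all 9030 tested genes, and the median was -0.12, beside -0.03. Over probesets, 94 of 127 were below 0 (74.0%, beside 58.7% of all). Both fluoxetine arrays lay below both controls at 60 member probesets (47.2%, beside 34.2%) and above both at 14 (11%, beside 21.9%), and the groups overlapped at 53. With each array centred on its median, 56 of 80 member genes were below 0 (70.0%) with a median of -0.09, while all genes were at 49.6% and 0.00. In RNA from whole tissue, fewer cells of a type and less RNA per cell cannot be told apart.

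**Figure D1:**
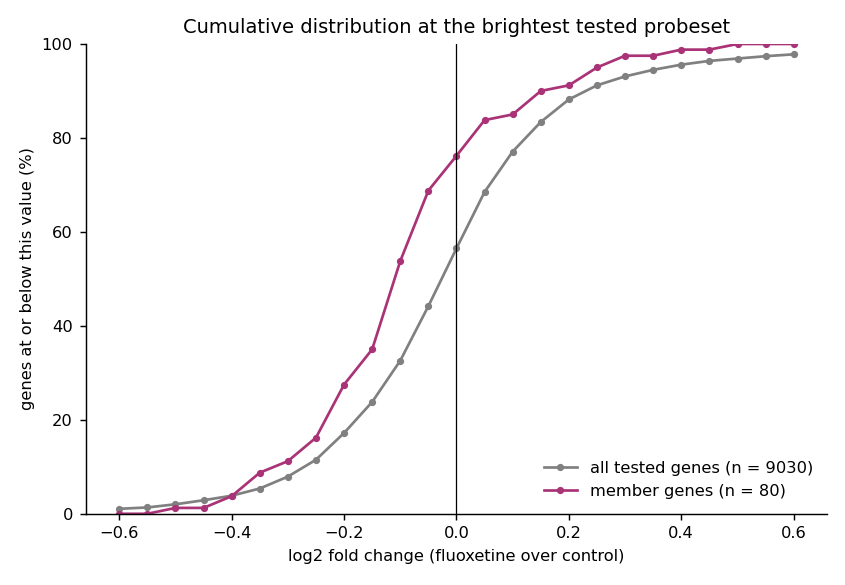
Share of genes (%) at or below each log2 fold change of fluoxetine over control, for the 80 member genes and all 9030 tested genes, each at its brightest tested probeset. The member curve crosses 0 at 76.2% and the curve of all genes at 56.5%, and no member lies beyond -0.51 or 0.46.

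**Figure D2:**
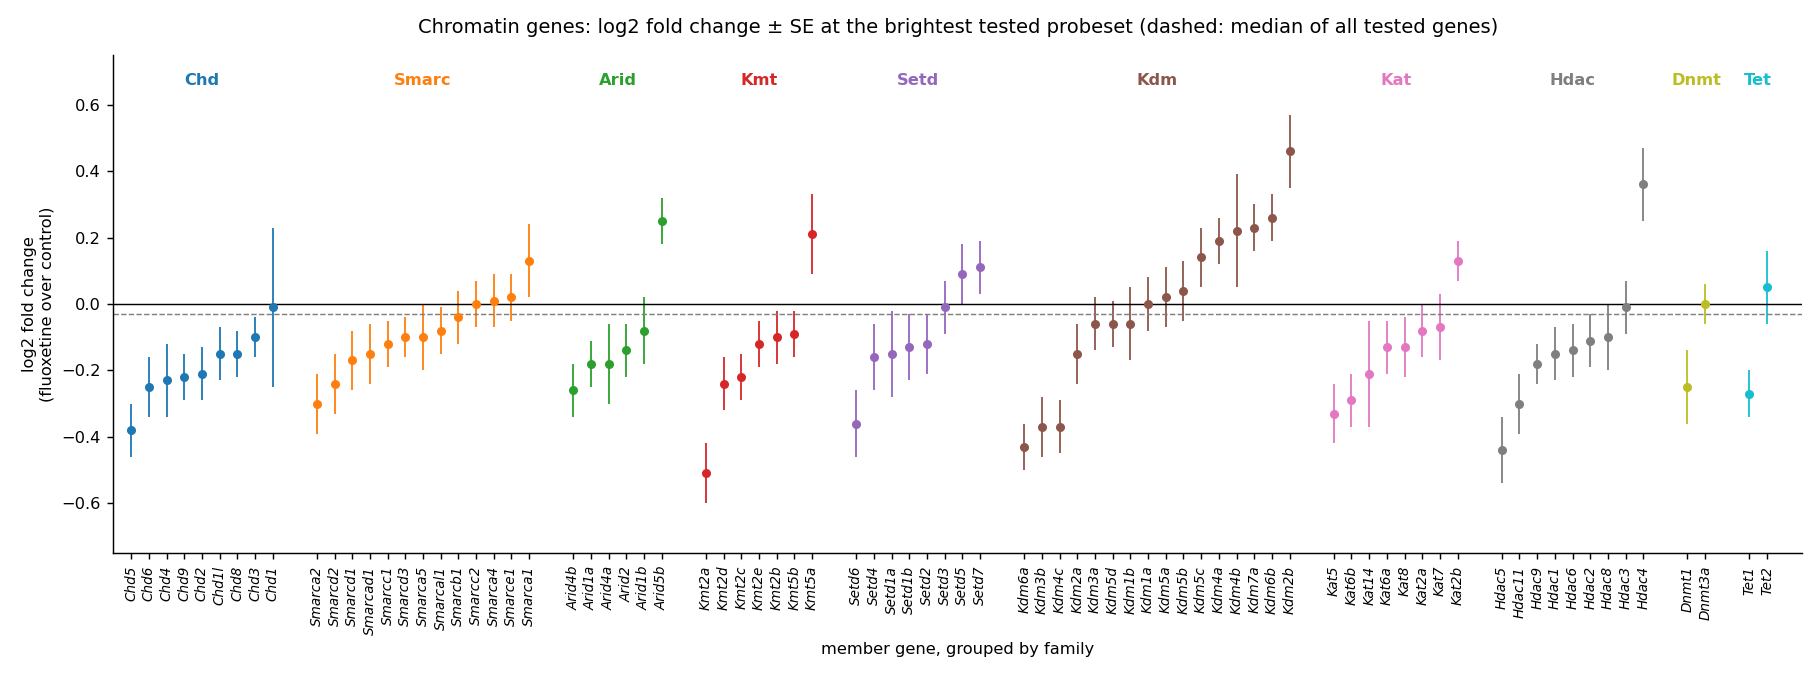
Log2 fold change ± SE (limma, n = 2 pools per group) of each tested member gene, ordered within its family, with the median of all tested genes at -0.03 as a dashed line. All 9 Chd genes lie below 0 (Chd1 above 0 under quantile normalization or median centring), whereas the 16 Kdm genes spread evenly on either side, and 0 of the 80 genes shown passed the test.

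Among the CHD remodellers, 9 of 10 genes were tested, and all 12 of their probesets were below 0, except that Chd1 turned above 0 under quantile normalization and median centring and without control pool 1 or fluoxetine pool 1 (median of the 9 genes -0.21). Chd5, a neuron-enriched ATPase of the nucleosome remodelling and deacetylase (NuRD) complex, read 1105 and 1235 in control pools 1 and 2 and 912 and 879 in fluoxetine pools 1 and 2. The groups did not overlap, and the log2 fold change was -0.38 ± 0.08 (adjusted p = 0.0994). Its paralogues Chd4 (log2 -0.23 ± 0.11) and Chd3 (-0.10 ± 0.06), the more widely expressed NuRD ATPases, lay in the same direction. Chd8, a negative regulator of beta-catenin signalling and a leading autism gene, was at 705 and 739 in control and 674 and 631 in fluoxetine pools. Both its tested probesets were lower in fluoxetine pools without overlap (log2 -0.15 ± 0.07 and -0.20 ± 0.07). Chd6 and Chd9 of the same subfamily were at -0.25 ± 0.09 and -0.22 ± 0.07, and Chd2 at -0.21 ± 0.08. Chd1l, a remodeller activated by poly(ADP-ribose), was at -0.15 ± 0.08. Chd1, which binds the methyl mark of active promoters, varied more within groups than between them, with 379 and 295 in control and 269 and 413 in fluoxetine pools (log2 -0.01 ± 0.24).

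The Smarc genes, 13 of 13 tested, had a median of -0.10, and 9 were below 0. Smarca2 and Smarca4 encode the alternative ATPases BRM and BRG1 of the BAF complex. Smarca2 was at 1253 and 1312 in control and 975 and 1110 in fluoxetine pools, without overlap (log2 -0.30 ± 0.09, adjusted p = 0.158), and its second probeset gave -0.37 ± 0.12. Smarca4 was at 1670 and 1540 in control and 1685 and 1551 in fluoxetine pools, a difference of 0.01 ± 0.08. The difference between these ATPases was not tested. The core subunit genes Smarcb1 (-0.04 ± 0.08), Smarcc1 (-0.12 ± 0.07), Smarcc2 (0.00 ± 0.07) and Smarce1 (0.02 ± 0.07) stayed within 0.12 of 0. Of the interchangeable BAF60 subunit genes, Smarcd2 was at -0.24 ± 0.09, Smarcd1 at -0.17 ± 0.09 and Smarcd3, the neural and muscle form, at -0.10 ± 0.06. The ISWI ATPase genes had opposite signs, with Smarca1 at 489 and 579 in control and 555 and 608 in fluoxetine pools (0.13 ± 0.11, and 0.01 without control pool 1) and Smarca5 at -0.10 ± 0.10. The groups overlapped at both. Smarcad1, a remodeller of replicated chromatin, was at -0.15 ± 0.09, and Smarcal1, an annealing helicase of stalled forks, at -0.08 ± 0.07.

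Arid genes encode DNA-binding subunits with an AT-rich interaction domain, and 6 of 9 were tested (median -0.16). Arid5b, a cofactor of the histone demethylase PHF2, was the only Arid gene above 0, at 482 and 475 in control and 584 and 558 in fluoxetine pools. The groups did not overlap (log2 0.25 ± 0.07, adjusted p = 0.131), and its second probeset gave 0.12 ± 0.12. Arid4b, a subunit of the SIN3 deacetylase complex, was at 1206 and 1091 in control and 958 and 953 in fluoxetine pools, lower without overlap (log2 -0.26 ± 0.08, adjusted p = 0.158). All 3 of its tested probesets were below 0. Its partner Arid4a was at -0.18 ± 0.12. The BAF subunit genes Arid1a (-0.18 ± 0.07) and Arid1b (-0.08 ± 0.10) and the PBAF subunit gene Arid2 (-0.14 ± 0.08) were below 0 as well. The groups overlapped at Arid1b. The other tested probesets of Arid2 had opposite signs, with overlapping groups (-0.27 ± 0.18 and 0.02 ± 0.06).

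Kmt2a had the largest difference among all members. It encodes MLL1, a histone H3 lysine 4 methyltransferase that is needed for neurogenesis and memory. At its brighter probeset it read 668 and 634 in control pools 1 and 2 and 489 and 425 in fluoxetine pools 1 and 2. At the other it read 583 and 562 in control and 404 and 424 in fluoxetine pools. Every fluoxetine value was below every control value at both, with log2 -0.51 ± 0.09 (adjusted p = 0.0788) and -0.47 ± 0.07 (adjusted p = 0.0601). The 12 tested probesets of the 5 Kmt2 genes were all below 0 (10 of the 12 without fluoxetine pool 1), and at 10 both fluoxetine arrays lay below both controls, beside 34.2% of all tested probesets. Kmt2d and Kmt2c, which methylate enhancers, were at -0.24 ± 0.08 and -0.22 ± 0.07, all 4 Kmt2c probesets lying between -0.22 and -0.14. Kmt2b, the closest paralogue of Kmt2a, was at -0.10 ± 0.08, and Kmt2e at -0.12 ± 0.07 with its 4 probesets between -0.30 and -0.08. Kmt5a, the enzyme of monomethylated histone H4 lysine 20, was at 318 and 287 in control and 386 and 315 in fluoxetine pools. The groups overlapped (log2 0.21 ± 0.12, and 0.06 without fluoxetine pool 1), and Kmt5b, which adds further methyl groups there, was at -0.09 ± 0.07.

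All 8 Setd genes were tested, with a median of -0.12. Setd6, which methylates the RelA subunit of NF-kappaB, was at 201 and 171 in control and 148 and 142 in fluoxetine pools, without overlap (log2 -0.36 ± 0.10, adjusted p = 0.143). Setd7, a lysine methyltransferase of histone H3 and many other proteins, was at 1983 and 1796 in control and 1985 and 2091 in fluoxetine pools. Its fluoxetine values were just above the controls (0.11 ± 0.08, and 0.04 without control pool 2). Setd1a and Setd1b, further H3 lysine 4 methyltransferases, were at -0.15 ± 0.13 and -0.13 ± 0.10, and Setd2, the H3 lysine 36 enzyme of trimethylation, at -0.12 ± 0.09. Setd4 (-0.16 ± 0.10), Setd5 (0.09 ± 0.09) and Setd3, an actin histidine methyltransferase (-0.01 ± 0.08), all had overlapping groups.

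The demethylases were the only family of more than 2 tested genes split evenly, with 8 of 16 tested genes on each side of 0 and a median of 0.01 (7 of 16 below 0 under median centring, and 7 to 9 without an array). Kdm6a and Kdm6b, which both remove methyl groups from histone H3 lysine 27, lay on opposite sides. Kdm6a (UTX) was at 353 and 363 in control and 264 and 269 in fluoxetine pools, lower without overlap (log2 -0.43 ± 0.07, adjusted p = 0.063), and its second probeset gave -0.30 ± 0.08. Kdm6b (JMJD3), a stimulus-induced enzyme, was at 462 and 429 in control and 528 and 534 in fluoxetine pools, higher without overlap (0.26 ± 0.07, adjusted p = 0.146), while its second, dimmer probeset overlapped (0.37 ± 0.20). The difference between these paralogues was not tested. Kdm2b, a CpG-binding subunit of a Polycomb repressive complex, was at 853 and 793 in control and 1037 and 1241 in fluoxetine pools. Both its probesets were higher in fluoxetine pools without overlap (0.46 ± 0.11, adjusted p = 0.114, and 0.38 ± 0.10, adjusted p = 0.131). Its paralogue Kdm2a was at -0.15 ± 0.09 and -0.38 ± 0.17 at its 2 probesets.

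Enzymes of histone H3 lysine 9 also lay on both sides. Kdm4c was at 419 and 437 in control and 315 and 349 in fluoxetine pools, without overlap (log2 -0.37 ± 0.08, adjusted p = 0.103). Kdm3b was at 297 and 315 in control and 252 and 223 in fluoxetine pools, again without overlap (-0.37 ± 0.09, adjusted p = 0.117), and its paralogue Kdm3a was at -0.06 ± 0.08. Kdm7a, which acts on lysines 9 and 27, was at 1570 and 1489 in control and 1765 and 1815 in fluoxetine pools. It was higher without overlap (0.23 ± 0.07, adjusted p = 0.162), while the groups overlapped at its second probeset (0.13 ± 0.14). Kdm4a was at 0.19 ± 0.07, and Kdm4b, with overlapping groups, at 0.22 ± 0.17. The lysine 4 demethylase genes differed little: Kdm1a (LSD1) was at 2512 and 2262 in control and 2335 and 2428 in fluoxetine pools (0.00 ± 0.08), and Kdm1b at -0.06 ± 0.11. The 4 tested Kdm5 genes lay between -0.06 and 0.14, at their brightest probesets. The 3 probesets of Kdm5c, an X-linked gene of intellectual disability, did not have the same sign (0.14 ± 0.09, -0.01 ± 0.08 and -0.12 ± 0.18). Nor did those of Kdm5a (0.02 ± 0.09, -0.19 ± 0.11 and -0.36 ± 0.17). Kdm5d, the Y-linked homologue of Kdm5c, was at -0.06 ± 0.07.

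Of the 8 acetyltransferase genes, all tested, 7 were below 0 (median -0.13). Kat5 (TIP60), an acetyltransferase of histones H2A and H4 in DNA repair and transcription, was at 842 and 846 in control and 719 and 626 in fluoxetine pools. The groups did not overlap (log2 -0.33 ± 0.09, adjusted p = 0.137), and the second probeset gave -0.21 ± 0.12. Kat6b, like Kat5 a MYST family enzyme, was at 789 and 743 in control and 605 and 649 in fluoxetine pools. It was also lower without overlap (-0.29 ± 0.08, adjusted p = 0.132). The other MYST genes Kat6a (-0.13 ± 0.08), Kat8 (-0.13 ± 0.09) and Kat7 (-0.07 ± 0.10) were nearer to 0. Kat2b (PCAF) was at 720 and 708 in control and 772 and 789 in fluoxetine pools, the only Kat gene above 0 (0.13 ± 0.06, adjusted p = 0.319). Its paralogue Kat2a (GCN5) was at -0.08 ± 0.08, and the 2 probesets of Kat14, of the ATAC complex, had opposite signs (-0.21 ± 0.16 and 0.08 ± 0.09).

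Of the deacetylases 9 of 11 were tested and 8 were below 0, with a median of -0.14. Hdac4 and Hdac5, class IIa proteins that shuttle between nucleus and cytoplasm and repress MEF2 targets, lay at opposite ends of the family. Hdac5 was at 468 and 511 in control and 386 and 335 in fluoxetine pools, lower without overlap (log2 -0.44 ± 0.10, adjusted p = 0.106). Hdac4 was at 211 and 182 in control and 265 and 239 in fluoxetine pools, higher without overlap (0.36 ± 0.11, adjusted p = 0.155). Its second probeset, at 172 and 154 in control and 184 and 243 in fluoxetine pools, was higher too (0.38 ± 0.15). The third tested class IIa gene, Hdac9, was at 751 and 737 in control and 653 and 660 in fluoxetine pools (-0.18 ± 0.06, adjusted p = 0.202). The differences between these genes were not tested.

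Class I enzymes, among them the catalytic subunits of the NuRD, SIN3 and NCoR repressor complexes, were nearer to 0 at their brightest probesets. Hdac2, which restrains memory formation in mice, was at 2082 and 1950 in control and 1918 and 1810 in fluoxetine pools (log2 -0.11 ± 0.08), and its second probeset gave -0.29 ± 0.11 (adjusted p = 0.219). Hdac1 was at 355 and 330 in control and 300 and 319 in fluoxetine pools (-0.15 ± 0.08, adjusted p = 0.338), without overlap. Hdac3 was at 667 and 616 in control and 617 and 660 in fluoxetine pools, where the groups overlapped (-0.01 ± 0.08). Hdac8 overlapped as well (-0.10 ± 0.10). Hdac6, the class IIb tubulin deacetylase, was at 504 and 547 in control and 491 and 464 in fluoxetine pools (-0.14 ± 0.08, adjusted p = 0.37). Hdac11, the class IV enzyme, was at 1046 and 1167 in control and 937 and 862 in fluoxetine pools, lower without overlap (-0.30 ± 0.09, adjusted p = 0.16), and its second probeset gave -0.18 ± 0.07.

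The DNA methylation enzymes had few tested members. Dnmt1, the maintenance methyltransferase, was at 296 and 347 in control and 284 and 257 in fluoxetine pools at its brighter probeset (log2 -0.25 ± 0.11, adjusted p = 0.272). Its other probeset did not share this difference, with 309 and 276 in control and 292 and 296 in fluoxetine pools (0.01 ± 0.08). Dnmt3a, the de novo methyltransferase of adult neurons, was at 504 and 504 in control and 498 and 508 in fluoxetine pools, overlapping, and its dimmer probeset was at -0.16 ± 0.07 (adjusted p = 0.26). Tet1, which oxidises methylated cytosine, was at 195 and 189 in control and 165 and 153 in fluoxetine pools. The groups did not overlap (-0.27 ± 0.07, adjusted p = 0.135), and 1 of its 4 probesets was tested. Tet2 was at 368 and 400 in control and 364 and 433 in fluoxetine pools, overlapping (0.05 ± 0.11), and its second probeset gave 0.03 ± 0.08.

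**Figure D3:**
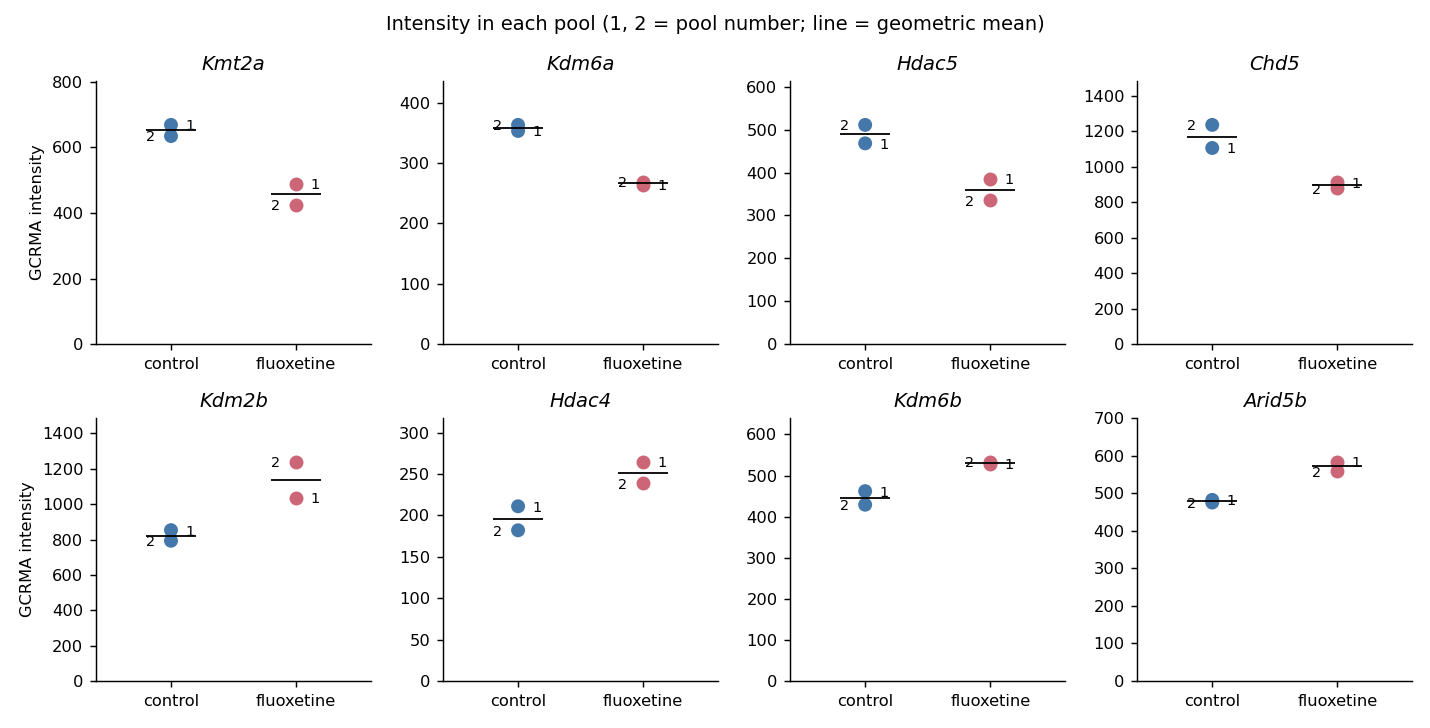
GCRMA intensity (linear axis from 0) of 8 members in each of the 4 arrays at the brightest tested probeset, with the geometric mean of each group as a line. Fluoxetine pools lie below control pools for Kmt2a, Kdm6a, Hdac5 and Chd5 and above them for Kdm2b, Hdac4, Kdm6b and Arid5b, as do 34.2% and 21.9% of all tested probesets. These 8 genes were picked from the ends of the range and none passed the test.

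Probesets of the same gene mostly had the same sign. Of 38 member genes with more than 1 tested probeset, 20 had all probesets below 0, 8 had all above 0 and 10 had both signs. These counts are not set beside those of all genes, and 74% of the tested member probesets were below 0. The widest gap between probesets of a gene was 0.38 on the log2 scale, in Kdm5a. Probesets of a gene share their arrays and RNA and are not replicates. Of the 127 tested probesets, 27 carry a suffix of probes that can match several transcripts, the brighter ones of Kdm6a, Kdm2b, Smarca2, Dnmt1 and Hdac2 among them.

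**Figure D4:**
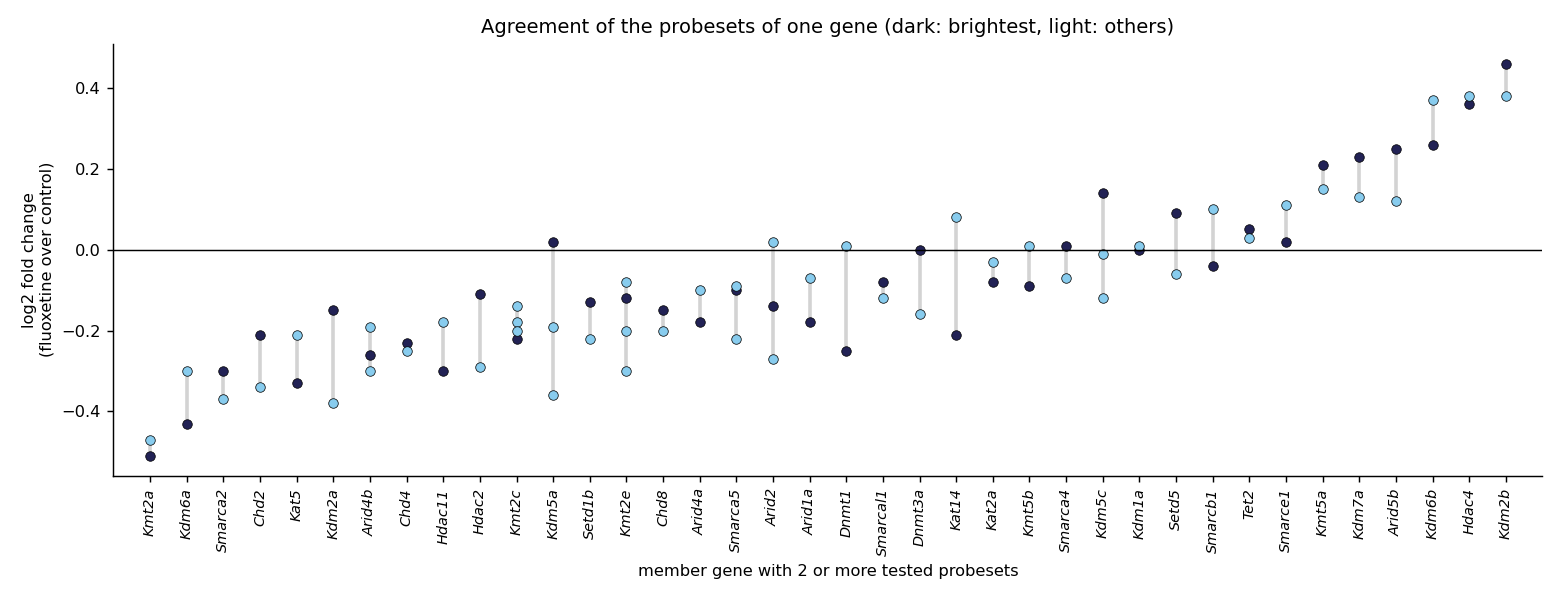
Log2 fold change of every tested probeset (points) of the 38 member genes with 2 or more, ordered by mean, with the brightest probeset in dark. Kmt2a, Kdm6a and Smarca2 lie on the left with all probesets below 0, and Kdm6b, Hdac4 and Kdm2b on the right with all above 0.

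Other chromatin genes, listed by complex, had list medians near that of the members, and a few had larger differences than any member. Of 137 tested genes that are no members, 99 were below 0 (72.3%, beside 56.5% of all tested genes), with a median of -0.09, and 1 rose and 0 fell by limma over all probesets (168 of all 9030 tested genes passed). At an unadjusted p under 0.05 there were 32 of the 137, beside 1991 of the 9030 (22%), so this count is near the background. The gene that rose was Gadd45b, a stress-induced factor linked to DNA demethylation, from 167 and 168 in control to 454 and 363 in fluoxetine pools (log2 1.28 ± 0.12, adjusted p = 0.0352). Of 20 Polycomb genes 0 passed (median -0.11), Ezh1, the H3 lysine 27 methyltransferase of mature neurons, being at -0.43 ± 0.08 (adjusted p = 0.0824) and the PRC2 cofactor Jarid2 at 0.39 ± 0.12. Of 25 other methyltransferase genes 0 passed (median -0.08), with Smyd4 at 201 and 144 in control and 323 and 380 in fluoxetine pools (1.04 ± 0.19, adjusted p = 0.0748) and Prdm8 at -0.52 ± 0.13. Of 21 corepressor and sirtuin genes 0 passed (median -0.10), with the SIN3 subunit gene Sap30 at 0.52 ± 0.10 (adjusted p = 0.0851) and Mbd3 at -0.34 ± 0.15. Of 29 other remodelling subunit genes 0 passed (median -0.11), with Actl6b, the neuronal BAF53b subunit, at -0.39 ± 0.07 (adjusted p = 0.0753) and the histone chaperone gene Hira at -0.46 ± 0.12. The 25 acetyltransferase and acetyl reader genes (median -0.11, Mllt1 at -0.42 ± 0.31 and Tada2a at -0.30 ± 0.08) and the 6 other demethylase genes (median -0.10, Jmjd1c at 0.22 ± 0.07 and Phf2 at -0.22 ± 0.12) had 0 calls too. The 11 DNA methylation readers and demethylation genes had a median of 0.01 with Gadd45b as the 1 call. Gadd45a (1.03 ± 0.17, adjusted p = 0.0672) and Gadd45g (0.46 ± 0.13, adjusted p = 0.15) were above 0 too but did not pass. In this list 5 of the 11 genes were below 0.

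Markers of hippocampal neurons were present: all 16 were tested, and the list median was -0.06. In the marker lists a gene was scored as higher or lower by its brightest probeset alone. On that basis 0 neuron markers rose and 1 fell (Dsp, a dentate granule cell marker). Calb1 did not pass at its brightest probeset (-0.45 ± 0.08, limma adjusted p = 0.0771), but 1 of its 3 tested probesets passed. Sums of a list's intensities are led by its brightest probesets, so they show mainly those genes and are compared between arrays only. The neuron sum, of which Snap25 gave 48085 to 49686 in each array, was 94435 to 96955 in control and 89721 to 92172 in fluoxetine pools. Microglia markers summed to 6847 to 6989 in control and 10765 to 11039 in fluoxetine pools, with 8 of 10 tested, 5 higher and 0 lower. Astrocyte markers summed to 67213 to 69532 and 76351 to 79806 (10 of 10 tested, 2 higher). The 2 were Gfap (2.78 ± 0.14) and Aqp4 (1.07 ± 0.08), while 3 of the 10 were below 0 and the list median was 0.16. Slc1a2 did not pass at its brightest probeset (0.11 ± 0.06), but 1 of its 3 tested probesets passed. Endothelial and mural markers summed to 3674 to 3703 and 4793 to 4947 (7 of 10 tested, 2 higher). The 2 were Abcc9 (0.52 ± 0.07) and Rgs5 (0.59 ± 0.06), of whose 4 tested probesets only 1 passed. Of all 9030 tested genes 168 passed in either direction. Interneuron markers (7 of 7 tested) summed to 18361 to 19621 and 18225 to 18232, and oligodendrocyte lineage markers (7 of 9 tested) to 57669 to 57916 and 54901 to 55093, each with 0 calls by limma. Of 11 markers of newborn neurons and dividing cells 5 were tested and 1 rose, Sox11 (1.21 ± 0.06). The list median was -0.00, with 2 genes above 0 and 3 below it, among them Ccnd2 (-0.40 ± 0.10) and Dcx (-0.28 ± 0.12). Choroid plexus markers summed to 38080 and 2107 in control pools 1 and 2 and to 51407 and 4531 in fluoxetine pools 1 and 2, almost all of it Ttr, with 2 of 8 tested. All 18 probesets of the hybridisation spike-ins were higher in fluoxetine arrays (median log2 0.36), whereas the median of tested probesets was -0.04. The part of these shifts in the members' values was not tested.

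**Figure D5:**
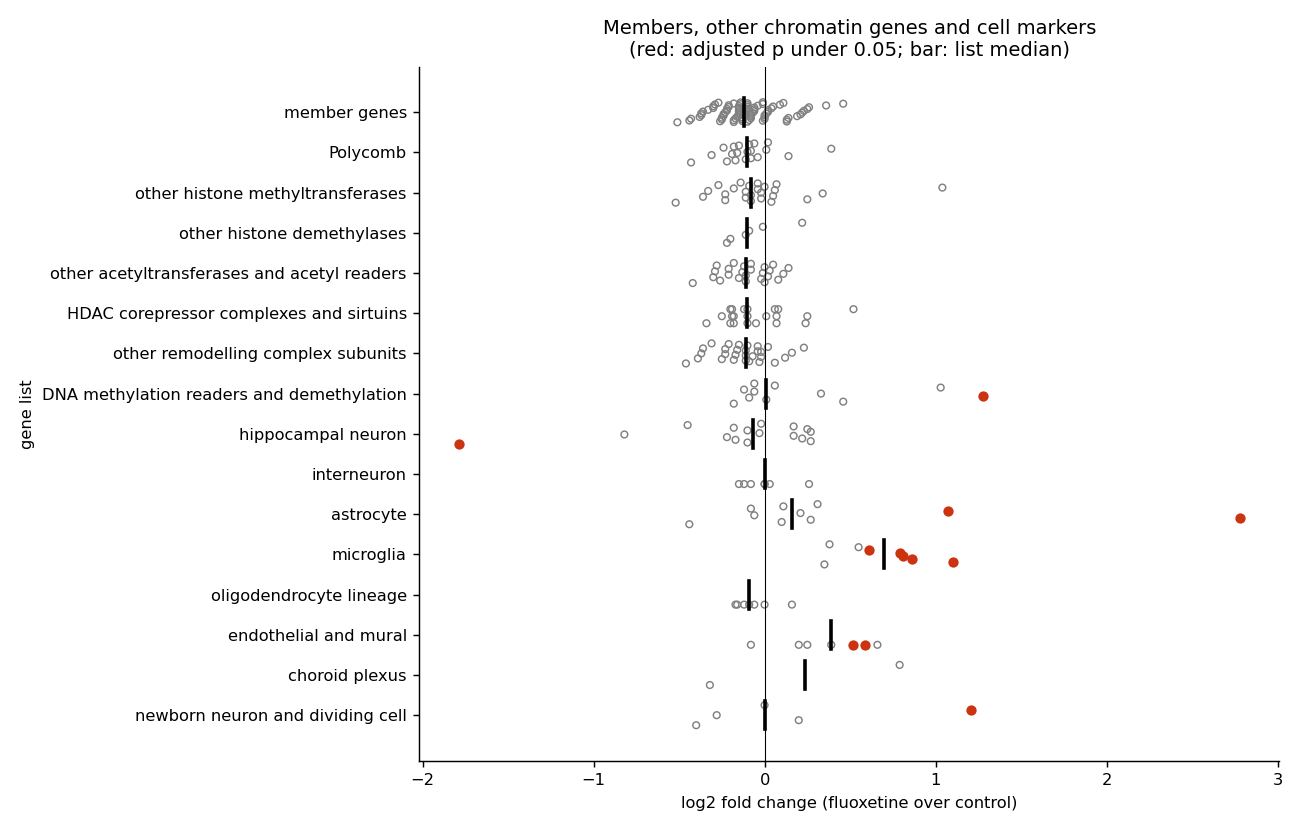
Log2 fold change of each tested gene (points) in the member set, the lists of other chromatin genes and the cell marker lists, with list medians as bars and genes at an adjusted p under 0.05 in red. Medians of 6 of the 7 other chromatin lists lie between -0.11 and -0.08, near the members' -0.12, and the microglia list lies at 0.70.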

How the data were processed

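Hippocampal RNA of 4 pools was measured on 4 arrays, 2 per group. The deposited values are linear intensities that the authors normalized with GCRMA in ArrayAssist, per the design text in the labels. The version was not given in the sources used here. GCRMA corrects background by probe sequence and pulls dim probesets to a low floor. Values were taken to log2 with no pseudocount. After removal of 64 control probesets, those at 100 or more in at least 2 arrays were kept (16938) and fitted with limma 3.58.1 in R 4.3.3 (lmFit, eBayes, no covariate). Two-sided p-values were adjusted by the Benjamini-Hochberg method across these probesets, with a threshold of 0.05. With 2 arrays a group, the smallest exact permutation p is 0.333. The fit was also run on simulated data with added changes far larger than any member difference. That run therefore says nothing about differences of the members' size. The number of arrays limits the precision.

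Probesets were named from the platform table, and all 92 member genes were found by gene number in RefSeq with 0 symbols changed. Each gene is given at its brightest tested probeset (highest mean log2). Errors are limma standard errors. The members, lists and tests were chosen with earlier results of these data known. The rule for named members took the highest and lowest gene of each family and every tested Hdac, Dnmt and Tet gene, and in each other list the called genes or otherwise the 2 with the largest differences. Further members and list genes were named after their values were seen. Alternatives covered the filter, normalization, a floor, a pseudocount, the variance model, probeset type, a replicate block and leaving out each array.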

Additional observations from a re-analysis of the deposited data

How the results depend on the processing

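Member calls were 0 under every alternative run except eBayes with trend and robust settings, which gave 1 (Kmt2a). Member probesets at an unadjusted p under 0.05 numbered 18 to 23 when an array was left out, against 35. Calls over all probesets, 291 with the reported setting, were 0 with no intensity filter and 0 without any array, 9 with the pool number as a replicate block, 532 with trend and robust settings and 193 without the _x, _s and _a probesets. Pool numbers are not said to pair pools; deviations of same-numbered pools correlated at 0.139, which 2 pairs cannot settle. The median of member genes stayed between -0.13 and -0.09 under all alternatives. The Kdm median, 0.01, was 0.03 with no filter, 0.03 with quantile normalization, 0.04 with median centring, -0.03 over the median of each gene's probesets and -0.03 to 0.05 without an array. Without an array the Arid median ranged from -0.21 to -0.05, Kat from -0.18 to -0.04, Setd from -0.20 to -0.04, Dnmt from -0.18 to -0.07 and Tet from -0.15 to -0.07. The Dnmt median was 0.01 with no filter and 0.00 without _x, _s and _a probesets, and the Tet median 0.05 with no filter. Of 27 named members, 22 kept their sign under every alternative in which they were fitted, but leaving out an array moved several of these by a large part of their size: Kmt5a (0.06 to 0.35), Smarca1 (0.01 to 0.25), Setd7 (0.04 to 0.18), Dnmt1 (-0.36 to -0.13), Hdac1 (-0.20 to -0.09), Hdac2 (-0.16 to -0.07) and Hdac6 (-0.20 to -0.08). Signs turned for values near 0: under quantile normalization and median centring Chd1 (0.03 and 0.02), Dnmt3a (0.03 and 0.03) and Hdac3 (0.02 and 0.02), and, without an array, Chd1 (-0.32 to 0.30), Dnmt3a (-0.02 to 0.01), Hdac3 (-0.06 to 0.05), Hdac8 (-0.22 to 0.03) and Tet2 (-0.08 to 0.17). The cause was not tested.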
